A study of Homo sapiens with 14 samples.

Results

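The CDK inhibitor genes were examined as a group of 8 in human IMR90 lung fibroblasts, chosen by name: CDKN1A, CDKN1B and CDKN1C of the CIP/KIP class, CDKN2A, CDKN2B, CDKN2C and CDKN2D of the INK4 class, and CDKN3. They are 8 of the 54628 gene symbols counted in the WT and HMGB2 KD libraries, and 51 of the 205259 transcripts in the old and young tables, 14 of them from CDKN2A. IMR90 is an established line of fetal fibroblasts, a standard model of senescence. RNA was poly(A)-selected in 7 groups, each with 2 replicates in its titles. I79 and I10 name isolates of it, and I79 young, I79 old, I10 young and I10 old were untreated cells sampled while proliferating or after passaging to replicative senescence. I79 ICM cells had received inflachromene (ICM), a small molecule that binds HMGB1 and HMGB2. HMGB2 KD cells were given siRNA against HMGB2, a chromatin protein, and were compared with WT cells. Which isolate served for WT and HMGB2 KD, and whether WT was transfected, is not in the labels, and every group is a culture of 1 line.

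CDK inhibitors hold back the kinases that drive cells from growth into DNA replication. The CIP/KIP proteins p21 (CDKN1A), p27 (CDKN1B) and p57 (CDKN1C) bind assembled cyclin-kinase complexes, and CDKN1A is induced by DNA damage. The INK4 proteins p16 (CDKN2A), p15 (CDKN2B), p18 (CDKN2C) and p19 (CDKN2D) bind CDK4 and CDK6 and keep the retinoblastoma protein active, while CDKN3 is a phosphatase of CDK2 that is itself expressed in cycling cells. Fibroblasts that stop dividing after long passaging are known for high p21 and p16. CDKN2A also encodes ARF, an unrelated protein that binds the ubiquitin ligase MDM2. ARF starts from another promoter and reads the shared exon in another frame.

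The split between p16 and ARF is a splice junction, so the 30 bases across it are shown for each form, with the last 15 bases of its first exon in lower case and the first 15 of the shared exon in capitals. They were read from GENCODE v44 transcripts lifted to GRCh37, on the minus strand of chromosome 9. The p16 first exon (CDKN2A-201) spans 21974677 to 21974856, the ARF first exon (CDKN2A-214) spans 21994138 to 21994391, and the shared exon spans 21970901 to 21971207.
p16 form, CDKN2A-201: cggaggccgatccagGTCATGATGATGGGC
ARF form, CDKN2A-214: ttcctagaagaccagGTCATGATGATGGGC
The first base of the shared exon is codon position 1 in the p16 form and codon position 2 in the ARF form. The capitals are therefore the same letters read in different frames, in an annotated open frame of 156 codons for p16 and 132 for ARF. Of the 14 CDKN2A transcripts, 4 start in the p16 first exon, 2 start in the ARF first exon and 8 start in neither. Whether these 8 hold either exon further inside was not examined. Of the last set, 5 transcripts, CDKN2A-212 among them, are annotated with a coding sequence that reads the p16 frame, so their reads were kept apart from both forms.

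Promoters are shown for part of the main transcripts, as the 250 bases before the start, from RefSeq on GRCh38.p14. They are the start of CDKN1A-201, which held nearly all CDKN1A reads, of CDKN2B-201, and of the p16 transcript CDKN2A-201. RefSeq windows matched the start of a listed transcript for 7 of the 8 genes, and CDKN1C had no entry. Capitals mark GGGCGG, the core of the GC box bound by Sp1, and its reverse complement CCGCCC.
CDKN1A, chr6:36678464-36678713, plus strand: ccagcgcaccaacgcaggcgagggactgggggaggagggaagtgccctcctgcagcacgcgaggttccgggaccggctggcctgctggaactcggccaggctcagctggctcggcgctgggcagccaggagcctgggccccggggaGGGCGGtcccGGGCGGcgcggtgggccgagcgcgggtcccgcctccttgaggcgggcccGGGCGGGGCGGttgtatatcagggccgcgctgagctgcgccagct
CDKN2B, chr9:22009306-22009555, minus strand: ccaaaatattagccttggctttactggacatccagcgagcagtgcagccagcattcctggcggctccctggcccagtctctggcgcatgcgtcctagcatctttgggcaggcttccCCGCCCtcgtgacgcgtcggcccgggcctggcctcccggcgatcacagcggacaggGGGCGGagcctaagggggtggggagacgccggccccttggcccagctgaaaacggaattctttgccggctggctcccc
CDKN2A p16 start, chr9:21974858-21975107, minus strand: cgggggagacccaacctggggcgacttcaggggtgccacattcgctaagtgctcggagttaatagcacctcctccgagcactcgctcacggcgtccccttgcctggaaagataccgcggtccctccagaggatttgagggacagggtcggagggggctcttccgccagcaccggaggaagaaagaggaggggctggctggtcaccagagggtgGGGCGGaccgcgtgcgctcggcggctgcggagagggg
The CDKN1A window held the motif 4 times, with 2 matches sharing a letter, the CDKN2B window 2 times and the p16 window 1 time. The window of CDKN2C-203, whose gene was called lower in old cells, is not shown. It held the motif 5 times, with a GC content of 77.2%. On either strand the motif was in 42.6% of 35116 upstream windows of the same length. GC content was 76.4% for CDKN1A, 66.4% for CDKN2B and 66.8% for p16. The matches describe these letters only.

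Depth ran from 33561766 to 41168932 gene counts for WT and HMGB2 KD, from 14991385 to 20632959 estimated counts for the 4 old and young tables, and was 13290131 and 10971132 reads for ICM. Each old or young group has 1 table for the 2 replicates in its titles, and whether that table pools both or holds 1 is not given in the sources used here, so its values are the authors' values for the group, with no SD or n. The knockdown showed in HMGB2 itself, with 27.1 and 27.4 CPM (counts scaled to library size, by TMM) in the WT libraries and 3.22 and 3.64 CPM in the knockdown (log2 fold change -2.99, adjusted p 8.28e-07). The 8 fibroblast markers summed to at least 12580 CPM in every column, and the 6 epithelial markers to at most 0.752 CPM, with KRT14, SFTPC and SCGB1A1 at 0 throughout. Of the other markers, CDH5 of endothelium and CD3E of T cells were at 0 throughout. Of the 4 endothelial markers, 3 were in the old and young tables. Their sum stood at 95.8 and 66.3 CPM in young and 216 and 167 CPM in old I79 and I10. Summed immune markers stood at 21.6 and 23.3 CPM in young and 158 and 84.8 CPM in old cells. Apart from those at 0, levels of single markers are not given here. The part of these genes in the results was not tested. The 5 proliferation markers (MKI67, TOP2A, CCNB1, BUB1 and CENPF) summed to 842 and 128 CPM in young and old I79, and to 946 and 270.0 CPM in I10. They summed to between 158 and 173 CPM in the WT and HMGB2 KD libraries and to 19.1 and 17.5 CPM after ICM.

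CDKN1A was the most abundant CDK inhibitor in every table. Between genes, levels were compared per length, as TPM (reads scaled by transcript length and depth) summed per gene. In I79 young CDKN1A stood at 293 TPM, CDKN3 at 65.5, CDKN1B at 44.01, CDKN2C at 23.4, CDKN2A at 20.7, CDKN1C at 15.7, CDKN2D at 6.28 and CDKN2B at 5.28 TPM. I10 young had the same order at the top, with CDKN1A at 289 TPM, CDKN3 at 63.5 and CDKN1B at 44.2 TPM. CDKN1A made up 61.9% of the summed TPM of the 8 genes in I79 young and 61.5% in I10 young, against 94.5% in I79 old and 90.2% in I10 old. The sum over all 8 genes went from 474 to 1851 TPM in I79 and from 470 to 1269 TPM in I10. The 4 INK4 genes together held 55.7 TPM in young and 38.1 TPM in old I79, and 60.002 and 60.7 TPM in I10. Put on length in the WT libraries (RPKM, reads scaled by depth and length, with transcript lengths weighted by reads in the old and young tables), CDKN1A was again far ahead, at 545 and 563. CDKN2A followed at 23.8 and 23.3 and CDKN1B at 19.4 and 19.2, and these differed from each other by more than the spread of the 2 libraries. That spread leaves out the length used for CDKN2A, whose transcripts include CDKN2A-212 of 678 bases and CDKN2A-214 of 1283. Its forms in WT were not analysed, so the order of these 2 genes was not settled. CDKN2D (3.03 and 2.05) and CDKN1C (2.91 and 1.89) were the lowest, and their libraries overlapped.

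**Figure D1:**
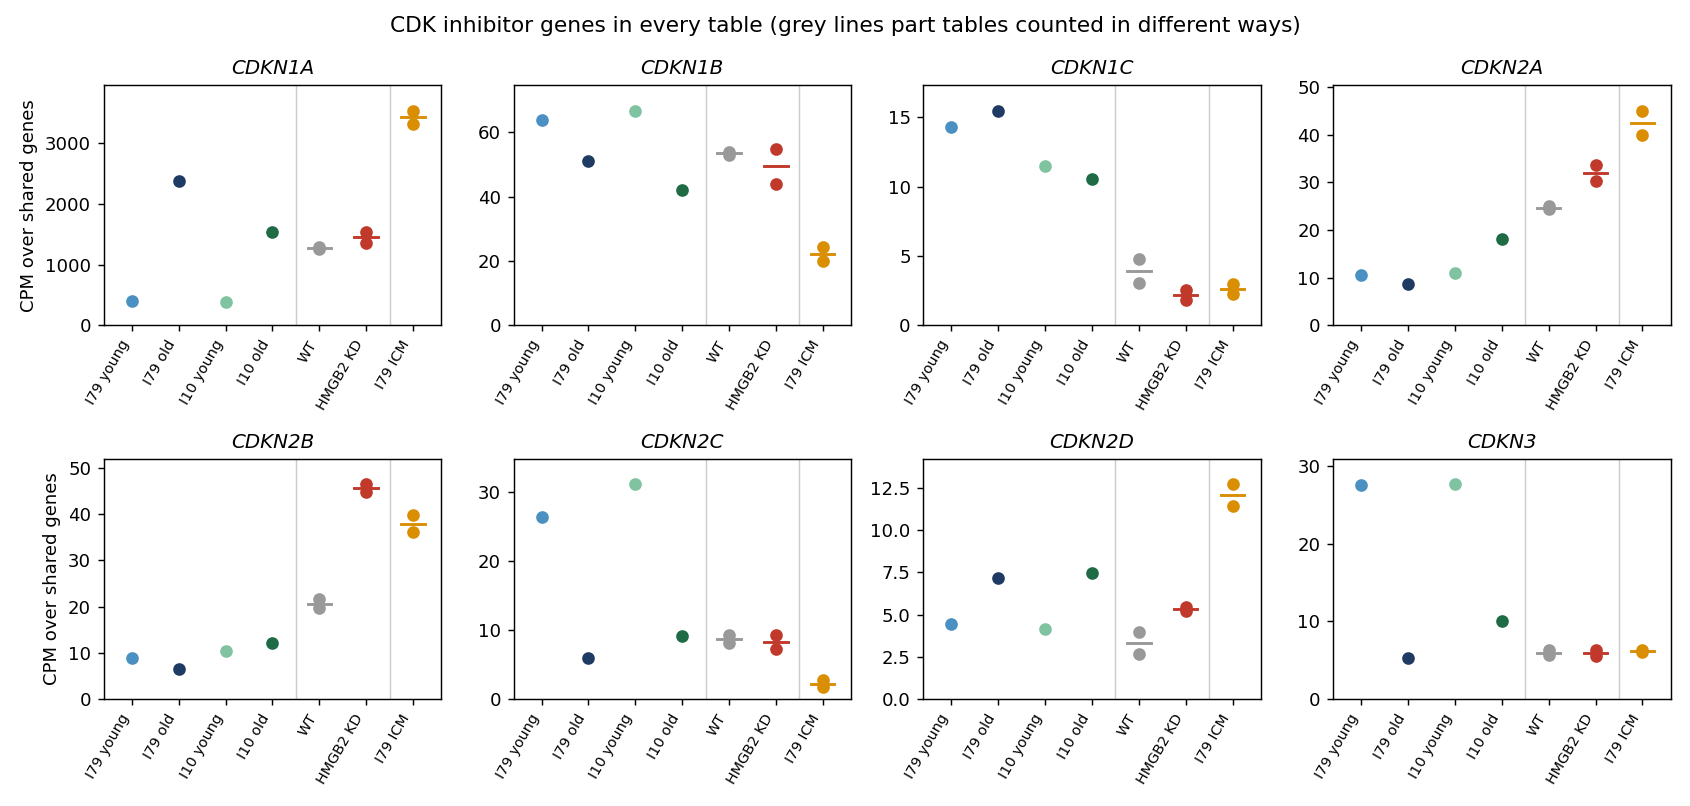
CPM over the 24638 genes shared by all tables, for each of the 8 CDK inhibitor genes, with 1 point per table or library and a line at the mean where a group has 2 libraries. CDKN1A stood at 404 CPM in I79 young and 2385 CPM in I79 old, CDKN2C at 26.4 and 6.00 CPM, and the grey lines part tables that were counted in different ways.

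The old and young groups address how the inhibitors change when cells are passaged to senescence. Over both isolates, 1 of the 8 genes rose (CDKN1A) and 1 fell (CDKN2C), beside 9.36% of the 15134 genes tested that were called. Calls needed an adjusted p under 0.01 and a log2 fold change of more than 0.6 in either direction, by edgeR's quasi-likelihood test with Benjamini-Hochberg adjustment. Among all genes 5.66% were called higher and 3.7% lower. The median log2 fold change was 0.16 over the 8 genes and -0.01 over all genes. The isolates served as the 2 replicates, which left 1 residual degree of freedom. Within an isolate, with 1 table per group, 4 of the 8 genes moved by more than 0.6 in I79 (41.2% of all genes did) and 5 in I10 (37.3%).

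Of the CIP/KIP genes, CDKN1A (chromosome 6, 36644237 to 36655114 of GRCh37) had 5533 estimated counts in I79 young and 43308 in I79 old, and 6539 in I10 young and 29068 in I10 old. Old tables were well above the young ones in both isolates. This was a 6.63-fold rise in I79 and a 4.71-fold rise in I10, with a fitted log2 change of 2.48 (SE 0.19, adjusted p 0.0043). Between 96.2% and 97.3% of its counts lay on CDKN1A-201 in every table. CDKN1B (chromosome 12, 12838432 to 12875303), which encodes p27, stood at 56.0 and 50.2 CPM in I79 young and old and at 58.0 and 43.8 CPM in I10. Its log2 fold change was -0.28 (SE 0.12, adjusted p 0.13), lower in both isolates but not called. CDKN1C (chromosome 11, 2904443 to 2907005), which encodes p57, stood at 12.5 and 15.2 CPM in I79 and 10.01 and 11.001 CPM in I10. Its log2 fold change was 0.21 (SE 0.16, adjusted p 0.35), and the counting interval of the change on the log2 scale was 0.013 to 0.55 in I79 and -0.16 to 0.43 in I10, so 0 lay outside it in I79 and inside it in I10. Fewer cells of a type and less RNA per cell cannot be told apart in these bulk samples. DINOL lies antisense to CDKN1A and GPR19 antisense to CDKN1B, and whether counting used strand is not given in the sources used here.

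Of the INK4 genes, CDKN2C (chromosome 1, 51426417 to 51440306), which encodes p18, had 362 counts in I79 young and 109 in I79 old, and 518 in I10 young and 171 in I10 old. Young tables were the higher ones in both isolates. The fitted log2 fold change was -1.73 (SE 0.18, adjusted p 0.0061), with -1.95 in I79 and -1.50 in I10. Most reads lay on CDKN2C-203, which had 277 and 427 counts in young I79 and I10 and 68.5 and 128 counts in old. CDKN2C-202, which starts further downstream, went from 83.1 to 40.5 and from 88.3 to 42.9 counts, and its share of the gene was 23.0% in young and 37.2% in old I79, and 17.0% and 25.1% in I10. CDKN2D (chromosome 19, 10677136 to 10679735), which encodes p19, stood at 3.90 and 7.05 CPM in I79 young and old and 3.60 and 7.74 CPM in I10. It was higher in old cells of both isolates, with a log2 change of 0.98 (SE 0.22, adjusted p 0.032), but was not called. CDKN2B (chromosome 9, 22002902 to 22009304), which encodes p15, stood at 7.81 and 6.40 CPM in I79 and 9.13 and 12.7 CPM in I10. Its direction differed between the isolates, and the log2 fold change was 0.11 (SE 0.25, adjusted p 0.75).

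CDKN3 (chromosome 14, 54863567 to 54886936) had 378 counts in I79 young and 96 in I79 old, and 461 in I10 young and 190 in I10 old. Its fitted log2 fold change of -1.68 (SE 0.28) was near that of CDKN2C, but its adjusted p of 0.0155 missed the threshold. The isolates differed more here, at -2.19 in I79 and -1.19 in I10. CDKN3 was called by DESeq2's Wald test (adjusted p 7.18e-05) and with counts rebuilt from TPM (0.0058). The summed proliferation markers given above were lower in the same tables as CDKN2C and CDKN3, and their part in these changes was not tested.

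**Figure D2:**
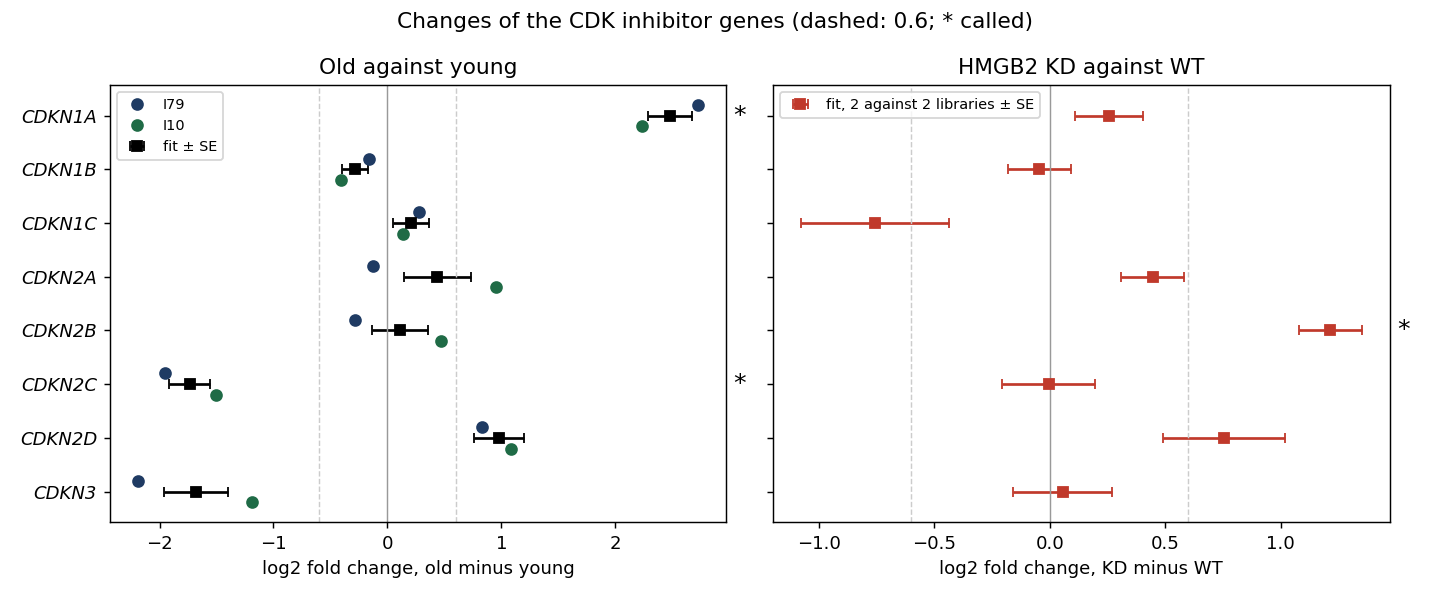
Log2 fold changes of the 8 genes, old minus young at left (circles, each isolate with 1 table per group, and squares, the fit over both isolates with its SE) and HMGB2 KD minus WT at right (squares with SE, 2 libraries a group). CDKN1A and CDKN2C passed the test at left, CDKN2B passed it at right, and CDKN2A and CDKN2B lay on opposite sides of 0 in the 2 isolates.

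CDKN2A (chromosome 9, 21967751 to 21995300) as a whole gene stood at 9.34 CPM in I79 young and 8.57 CPM in I79 old, and at 9.65 CPM in I10 young and 18.8 CPM in I10 old. It was lower in old I79 by a log2 change of -0.12 and higher in old I10 by 0.95, and the fitted change was 0.44 (SE 0.30, adjusted p 0.31). This whole-gene value joined forms that differed in direction. Transcripts with the p16 first exon had 6 counts in I79 young and 45 in I79 old, and 31 in I10 young and 137 in I10 old. Transcripts with the ARF first exon had 82 and 34 counts in I79, and 104 and 84 in I10. Those with neither had 59 and 79 counts in I79, and 50 and 119 in I10. The p16 forms were thus higher in the old tables of both isolates. The ARF forms were lower in old I79, while in I10 their difference was small and within counting error.

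In a fit chosen after the values were seen, in which the CDKN2A row was replaced by its 3 sets of transcripts among all genes, the p16 forms had an estimate of 2.37 on the log2 scale (SE 0.34, adjusted p 0.0108), just short of being called. The 95% counting interval of the p16 change was 1.44 to 4.19 on the log2 scale in I79 and 1.66 to 2.84 in I10. The ARF forms had an estimate of -0.82 on the log2 scale (SE 0.38, adjusted p 0.17). The forms that start in neither exon had 0.76 (SE 0.36, adjusted p 0.17). For ARF the counting interval was -2.13 to -0.92 in I79 and -0.66 to 0.20 in I10, so the difference in I10 was within counting error. DESeq2's Wald test gave the p16 forms an adjusted p of 0.0077 and edgeR with DESeq2's size factors 0.0087, while edgeR without the isolate term gave 0.085.

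As a share of the gene's counts, ARF forms made up 56.2% of CDKN2A in I79 young (Wilson 95% interval 48.1 to 64.0) and 21.5% in I79 old (15.8 to 28.6). In I10 they made up 56.2% in young (49.0 to 63.2) and 24.7% in old cells (20.4 to 29.6). The p16 forms went from 4.11% (1.90 to 8.68) to 28.5% (22.0 to 36.0) in I79 and from 16.8% (12.1 to 22.8) to 40.3% (35.2 to 45.6) in I10. Old and young intervals did not overlap for either form in either isolate. All such intervals reflect the number of reads alone, as there are no molecular identifiers, and they leave out the estimation that splits reads among transcripts sharing an exon. As a share of summed TPM, the ARF forms stood at 36.97% and 13.1% in I79 and 50.1% and 19.7% in I10, lower in old cells as well.

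By transcript, most p16 reads of both old tables and of I10 young lay on CDKN2A-201, which had 44.05 counts in old I79 and 24.4 and 134 counts in young and old I10. In I79 young CDKN2A-201 was at 0 counts, and the few p16 reads were put on CDKN2A-213 (4.31 counts) and CDKN2A-203 (1.24 counts). For this reason no fold is given for CDKN2A-201 in I79, while in I10 it was 4.94-fold higher in old cells per library total. The ARF transcript CDKN2A-214 had 81.7 and 33.5 counts in I79 and 54.2 and 64.6 in I10. A second ARF transcript, CDKN2A-210, was at 0 in both I79 tables and had 49.7 counts in I10 young and 19.1 in I10 old. ARF reads were thus divided differently between these 2 transcripts in the isolates. CDKN2A-212, which starts at 21971331, upstream of the shared exon, had 54.6 and 69.2 counts in I79 and 40.3 and 104 in I10. Beside CDKN2A-201, CDKN2A-214, CDKN2A-210 and CDKN2A-212, 9 more had counts (CDKN2A-203 to CDKN2A-209, CDKN2A-211 and CDKN2A-213), at most 5.31 in any table, and CDKN2A-202 was at 0 in all 4.

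**Figure D3:**
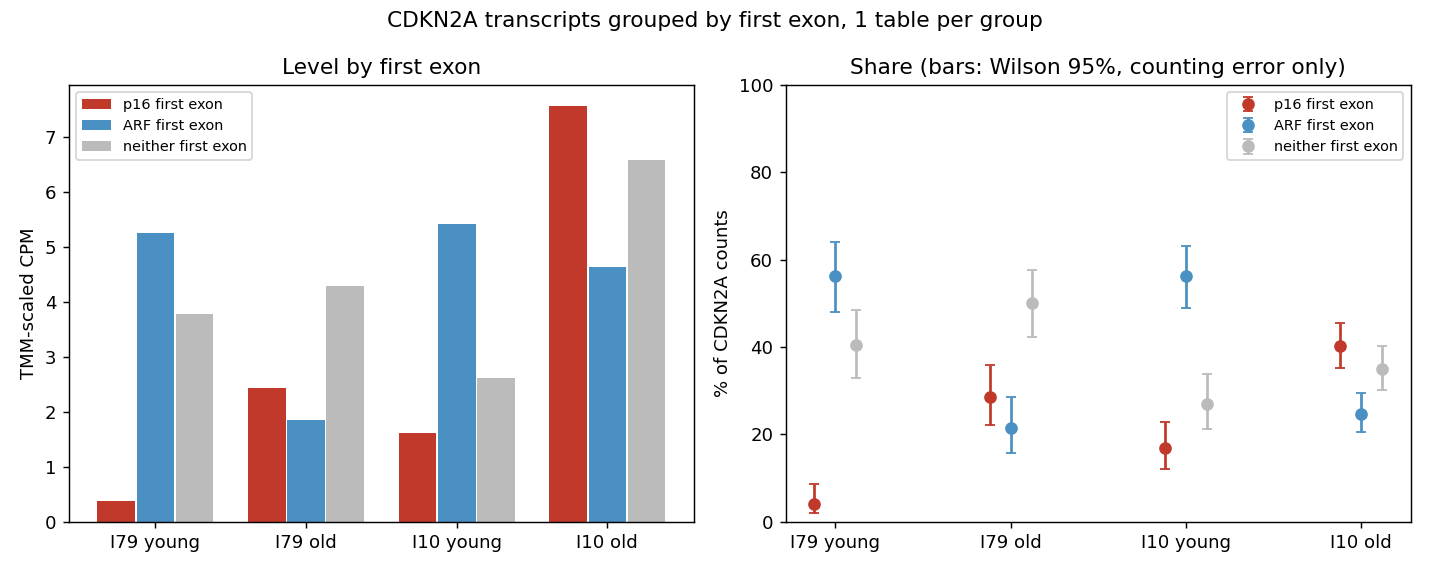
CDKN2A transcripts grouped by first exon in the 4 old and young tables, as TMM-scaled CPM (left) and as percent of the gene's counts with Wilson 95% intervals for counting error (right). The p16 forms stood at 0.384 and 2.44 CPM in young and old I79 and 1.62 and 7.57 CPM in I10, and the ARF share stood at 56.2% and 21.5%, and at 56.2% and 24.7%.

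When all 47069 transcripts were tested one by one, edgeR called 0 of the 23 transcripts of the 8 genes, and 0 of all transcripts (7010 had an unadjusted p under 0.05, 5 of them of these genes). The lowest adjusted p was 0.27. This fit had 1 residual degree of freedom and did not call changes of known size in simulated data either, so its count of 0 does not show that no transcript changed. DESeq2's Wald test called 4 of the 23, against 8.18% of all transcripts. They were CDKN1A-201 and CDKN1A-203, which were higher in old cells, and CDKN2C-203 and CDKN3-202, which were lower. CDKN1A-203, with 140.0 and 137 counts in young and 1095 and 830 counts in old I79 and I10, was named after its values were seen. CDKN3-202 had 232 and 293 counts in young and 43.3 and 94.5 counts in old I79 and I10. The smaller CDKN3-203 went from 113 to 34.6 counts and from 113 to 66.7. CDKN2D used CDKN2D-201 and CDKN2D-202 side by side, with the first holding between 51.9% and 64.3% of the gene's counts. CDKN1C was divided between CDKN1C-204 (48.3% to 57.3%) and CDKN1C-201 (34.1% to 42.8%), and CDKN2B-201 held 83.7% or more of CDKN2B. CDKN1B-201 held between 96.9% and 98.9% of CDKN1B. The smaller transcripts were often put at 0 in 1 table and not in the next. CDKN1C-202 had 19.2 counts in I79 young and 15.9 in I10 old and was at 0 in the other tables, and CDKN1C-206 had counts in I79 old alone, 14.2. CDKN2B-203, a retained intron, had 16.3 and 16.4 counts in young and old I79 and 0 and 14.4 in I10. CDKN3-205 had 0 and 8.17 counts in young and old I79 and 18.9 and 0 in I10, and CDKN3-208 had 22.8 and 7.57 counts in I79 and 13.8 and 20.7 in I10.

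The HMGB2 KD libraries address which inhibitors change when HMGB2 is depleted. Of the 8 genes, 1 rose (CDKN2B) and none fell by edgeR's quasi-likelihood test, beside 5.20% of the 15338 genes tested that were called and 2.86% that were called higher. At an unadjusted p under 0.05 there were 4 of the 8 and 3662 of all 15338 genes. DESeq2's Wald test also called 1 of the 8, and 944 of all genes. The values of the 2 groups did not overlap for 5 of the 8 genes, as for 53.8% of all genes. The median log2 fold change was 0.16 over the 8 genes and 0.00 over all genes. Since the labels do not say that the libraries came from separate cultures, the p-values measure the spread between these libraries, which may be technical.

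CDKN2B had 682 and 679 counts in WT and 1569 and 1816 in HMGB2 KD. Scaled, the WT libraries had 19.9 and 18.2 CPM (19.1 ± 1.23, SD, n = 2) and the knockdown libraries 42.9 and 45.5 CPM (44.2 ± 1.90, SD, n = 2). Both knockdown libraries lay far above both WT libraries. The log2 fold change was 1.21 (SE 0.14, adjusted p 0.00011), a 2.32-fold rise, and it was called under every alternative tried. CDKN2A, its neighbour at the locus, went from 23.1 and 22.5 CPM to 28.9 and 33.1 CPM in the knockdown. Its log2 fold change of 0.44 (SE 0.14, adjusted p 0.055) was not called. These tables count genes, so its p16 and ARF forms were not analysed here. CDKN2B-AS1, which lies antisense across both genes, had 0.70 and 0.75 CPM in the WT libraries and 1.01 and 0.88 CPM in the knockdown libraries. In CPM, not scaled by length, these values were below those of both genes. The part of antisense reads in the counts was not tested. Another antisense gene, ENSG00000264545, also overlaps both, and its level was not examined. Whether counting used strand is not given in the sources used here.

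The other INK4 genes were not called. CDKN2D had 3.65 and 2.46 CPM in the WT libraries and 5.22 and 5.09 CPM in the knockdown libraries, which was 0.76 on the log2 scale (SE 0.26, adjusted p 0.088). With 1 unwanted factor removed by RUVs it was called, at an adjusted p of 0.0096, and without WT replicate 2 the log2 fold change was 0.49. CDKN2C had 7.54 and 8.57 CPM in the WT libraries against 6.91 and 9.13 CPM, and the groups overlapped. Its log2 fold change was -0.01 with a 95% interval of -0.44 to 0.42.

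Among the CIP/KIP genes, CDKN1A had 1163 and 1196 CPM in the WT libraries and 1299.7 and 1516 CPM in the knockdown libraries. The knockdown libraries were higher, but the log2 fold change of 0.26 (SE 0.15, adjusted p 0.33) was not called, with a 95% interval of -0.06 to 0.57, and was 0.14 without HMGB2 KD replicate 2. CDKN1C had 4.38 and 2.84 CPM in the WT libraries and 1.78 and 2.48 CPM in the knockdown libraries. Its log2 fold change was -0.76 (SE 0.32, adjusted p 0.16), from 65 to 150 counts a library, and it was -0.41 without WT replicate 1 and -1.04 without WT replicate 2. CDKN1B (49.7 and 48.9 CPM against 52.4 and 43.2 CPM in the knockdown) had a log2 fold change of -0.04 with an interval of -0.34 to 0.25. CDKN3 (5.84 and 5.22 CPM against 5.35 and 6.14 CPM in the knockdown) had a log2 fold change of 0.06 with an interval of -0.40 to 0.52. Libraries overlapped for CDKN1B and CDKN3. The sign of CDKN1B, CDKN2C and CDKN3 turned when single libraries were left out.

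For the ICM libraries, reads were counted per gene and transcript region, unlike any control, so they were set beside I79 young on CPM over 24638 shared genes, with no test. Ratios of WT to I79 young by the same steps are given as a background. All 8 genes differed from I79 young by more than 0.6 on the log2 scale, 4 of them higher and 4 lower, as did 60.7% of 14967 genes. For WT against I79 young it was 6 of the 8, and 45.1% of genes. The median log2 ratio over all genes was -0.01 for ICM and -0.02 for WT.

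CDKN1A had 42769 and 37587 reads in the ICM libraries, or 3322 and 3537 CPM, against 404 CPM in I79 young and 1262 and 1297 CPM in WT. Its log2 ratio to I79 young was 3.09 for ICM and 1.66 for WT. The size turned on the reads used. With coding reads alone on the ICM side the ratio was 1.71, where the median of all genes moved to -0.26. The I79 young side kept its reads over whole transcripts, here and in the other ratios from coding reads. Such ratios are therefore not like for like, and a gene with a small coding part is lowered in them. CDKN2A had 39.9 and 45.1 CPM against 10.7 in I79 young (log2 ratio 1.98, WT 1.21), and 2.15 from coding reads. CDKN2B had 39.9 and 36.0 CPM against 8.90 (log2 ratio 2.08, WT 1.20), and 0.81 from coding reads. CDKN2D had 11.4 and 12.7 CPM against 4.45 (log2 ratio 1.42, WT -0.44), and 1.24 from coding reads.

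Of the genes lower than in I79 young, CDKN2C was at 2.72 and 1.69 CPM against 26.4 (log2 ratio -3.56, WT -1.59), on only 35 and 18 reads, and its ratio from coding reads was -4.53. CDKN1B was at 24.2 and 20.1 CPM against 63.8 (log2 ratio -1.53, WT -0.26), and -2.14 from coding reads. CDKN1C was at 2.25 and 3.01 CPM against 14.3 (log2 ratio -2.41, WT -1.88), and CDKN3 at 6.37 and 6.02 CPM against 27.6 (log2 ratio -2.14, WT -2.18). From coding reads these were -2.39 for CDKN1C and -1.76 for CDKN3. CDKN1C and CDKN3 were thus near the ratio that WT also showed, and with WT in place of I79 young CDKN3 had a log2 ratio of 0.047 and CDKN1C of -0.54. The 2 ICM libraries differed by less than the distance to I79 young for every gene. The tables' counting, the cells and the treatment cannot be told apart in these ratios.

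Within the ICM libraries, the inhibitors differed in where on the transcript their reads lay, in shares not scaled by the length of each region. CDKN1A-201 is coding over 492 of its 2180 bases, CDKN2B-201 over 414 of 3911 and CDKN3-202 over 636 of 893. The part of these lengths in the shares was not tested. CDKN1A had 59.996% and 61.9% of its reads in the 3′ UTR, and CDKN2B 58.4% and 54.3%, against 25.3% and 24.2% over all genes. CDKN2A had 71.2% and 68.7% of its reads in the coding region and 10.3% and 8.77% in the 3′ UTR. CDKN3 had 79.3% and 82.8% in the coding region. CDKN2C had 60% and 77.8% in the 5′ UTR on few reads, with 0 in the 3′ UTR, and CDKN1B had 34.9% and 38.8% in the 5′ UTR, against 10.4% and 10.6% over all genes. As RPKM over coding sequence and coding reads, CDKN1A stood at 2643 and 2745, CDKN2A at 46.5 and 50.0, and CDKN2B at 30.9 and 32.7. CDKN1C was at 1.85 and 3.17 and CDKN2C at 3.4996 and 1.19, and these 2 genes overlapped.

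**Figure D4:**
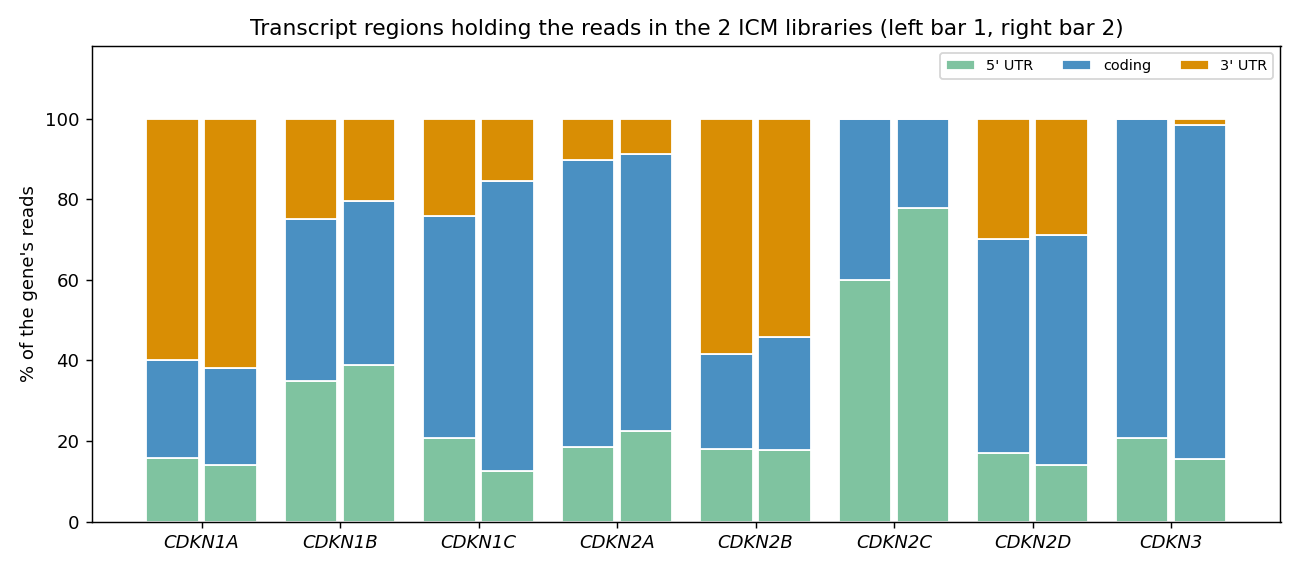
Percent of each gene's reads in the 5′ UTR, the coding region and the 3′ UTR in the 2 ICM libraries, side by side, not scaled by region length. CDKN1A and CDKN2B had over 54% of their reads in the 3′ UTR, and CDKN2C and CDKN3 at most 1.56%.

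Beside the inhibitors, 4 lists of genes were read in both fits: 15 partners (kinases, cyclins, PCNA and the retinoblastoma family), 17 genes of the DNA damage response, 20 regulators of INK4 genes and p27, and 10 neighbours of the INK4 locus and the CDKN1C imprinted domain. In old against young, 12 of the 57 listed genes tested rose and 6 fell, beside 5.66% of all genes called higher and 3.7% called lower. The median log2 fold change over all genes was -0.01. Among the partners, 3 of 14 rose and 3 fell, with a median log2 fold change of -0.33. CCND2 and CCND1, which like CCND3 are D-type cyclins that the INK4 proteins compete with, rose. They had log2 fold changes of 5.47 (SE 0.27, adjusted p 0.0034) and 2.58 (SE 0.16, adjusted p 0.0037). CCND2 rose from low levels, 1.02 CPM in I79 young and 1.36 CPM in I10 young. CCND3, named after its values were seen, was not called (0.15, adjusted p 0.51), with -0.13 in I79 and 0.43 in I10. CDK6, which INK4 proteins bind as they do CDK4, rose in I79 from 131 to 232 CPM, and in I10 from 125 to 262 CPM. CDK4, also named after its values were seen, was lower in old cells but not called in the same fit. Its log2 fold change was -0.60 (adjusted p 0.042), with -0.35 in I79 and -0.86 in I10. CCNB1, CDK1 and RBL1 fell, with log2 fold changes of -2.21, -1.80 and -1.34.

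Of the damage response genes, 4 of 17 rose and 2 fell, with a median of 0.67. GDF15 rose in I79 from 12.6 to 304 CPM, and in I10 from 10.6 to 73.7 CPM, and RRM2B, GADD45A and ZMAT3, which are induced by DNA damage like CDKN1A, had log2 fold changes of 1.98, 1.56 and 1.37. The checkpoint kinases CHEK1 and ATR, which signal that damage, fell, with log2 fold changes of -1.54 and -0.89. MDM2 had a log2 fold change of 0.24 (adjusted p 0.19) and was not called. Among the INK4 and p27 regulators 4 of 19 rose and 1 fell, with a median of -0.03. EZH2, a Polycomb enzyme that silences the INK4 locus, fell in I79 from 32.4 to 5.59 CPM, and in I10 from 32.0 to 7.68 CPM. CBX7, another Polycomb protein of that locus, rose from 4.35 to 30.4 CPM and from 4.12 to 18.5 CPM, while BMI1 stood at 41.4 and 40.7 CPM in I79 and 41.0 and 36.5 CPM in I10. TGFBR2, ETS2 and ETS1 had log2 fold changes of 1.22, 1.23 and 0.71. SKP2, the ligase subunit that marks p27 for degradation, had -0.77 (adjusted p 0.012) and was not called.

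Of the neighbours, 1 of 7 rose (IGF2, log2 fold change 3.76) and none fell. MTAP, next to CDKN2A, stood at 35.5 and 30.0 CPM in I79 and 36.3 and 29.3 CPM in I10 and was not called (adjusted p 0.13). CDKN2B-AS1 stood at 1.09 and 0.71 CPM in I79 and 1.51 and 0.61 CPM in I10 (adjusted p 0.17).

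In HMGB2 KD against WT, where 5.20% of all genes were called and 2.86% called higher, 4 of the 58 listed genes tested rose and 2 fell. These were 2 genes in all without HMGB2 KD replicate 2 and 3 without WT replicate 1. CDK6 rose from 92.6 and 105.9 CPM to 211 and 196 CPM (log2 fold change 1.03, SE 0.13, adjusted p 0.0003), the 1 call among 15 partners. Of the damage response genes GADD45A rose (0.73), while GDF15 and CHEK2 fell, with log2 fold changes of -1.23 and -0.83. The WT libraries lay far apart for GDF15, at 602 and 365 CPM, against 220.5 and 192 CPM in the knockdown libraries. Among the regulators TGFB1, a known inducer of CDKN2B, rose from 131 and 134 CPM to 241 and 325 CPM (log2 fold change 1.09, SE 0.16, adjusted p 0.00054), and ETS1 rose with a log2 fold change of 0.64. MDM2 (-0.18), SKP2 (-0.35), EZH2 (-0.09) and BMI1 (0.22) were not called. BMI1 had only 1.26 and 1.74 CPM in the WT libraries and 1.04 and 2.46 CPM in the knockdown libraries. With an SE of 0.44, its change was poorly resolved. In the old and young tables, counted in another way, BMI1 stood between 36.5 and 41.4 CPM. The source of this gap was not tested. None of the 6 neighbours tested was called by edgeR (2 had an unadjusted p under 0.05, and DESeq2 called 0), and MTAP had a log2 fold change of -0.46 (adjusted p 0.042).

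**Figure D5:**
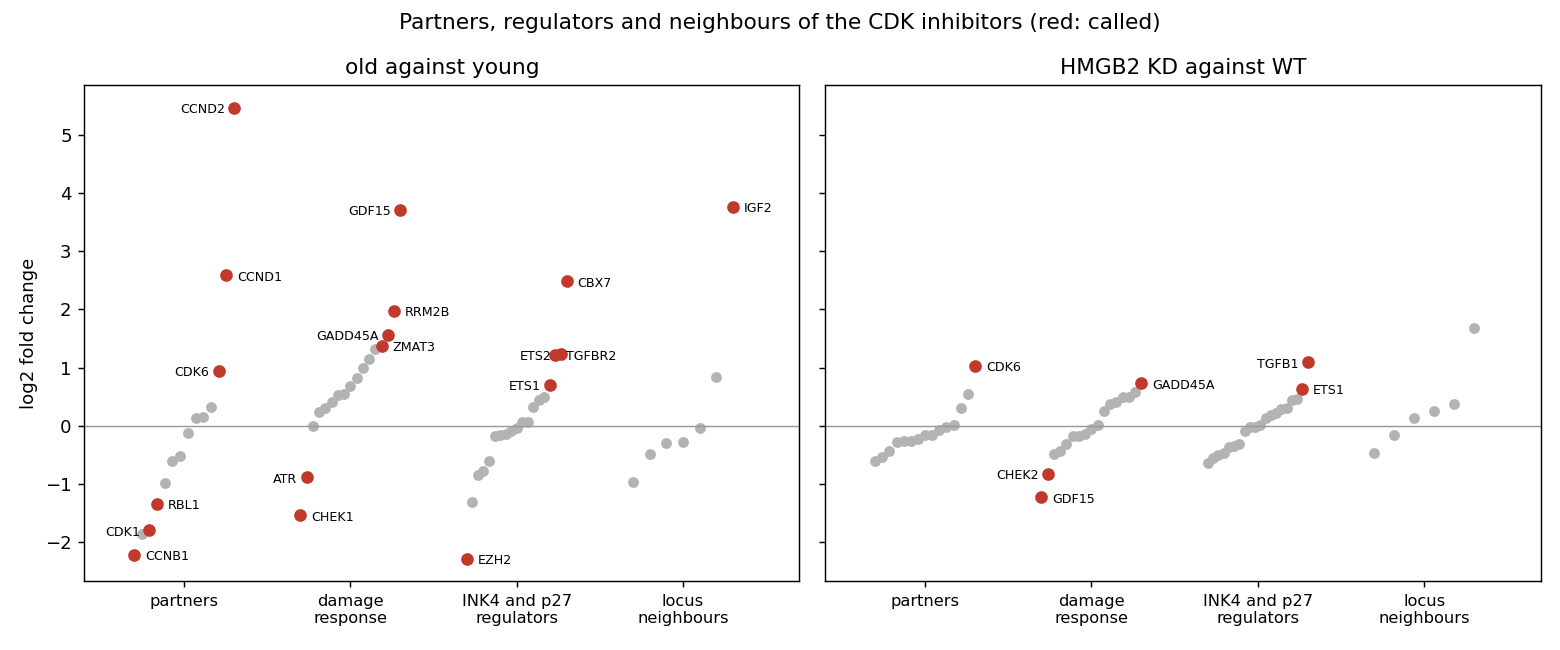
Log2 fold changes of the listed genes, ordered within each list, for old against young (left) and HMGB2 KD against WT (right), with called genes in red and named. In old against young CCND2 (5.47) and IGF2 (3.76) lay highest and EZH2 (-2.29) lowest, and at right 6 genes were called.

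The genes most like CDKN1A, CDKN2A and CDKN2B were sought among 12774 genes tested in both fits, by Euclidean distance over 4 log2 changes (old minus young in I79 and in I10, and each HMGB2 KD library minus the WT mean). Nearest to CDKN1A were FBN2 (distance 0.28), ICAM5 (0.30) and EEF1A2 (0.37). FBN2, a fibrillin of the extracellular matrix, had 2.78 in I79 and 1.98 in I10, where CDKN1A had 2.73 and 2.24. Nearest to CDKN2A were ARHGAP18 (0.16), SYTL2 (0.27) and ANXA1 (0.27), and nearest to CDKN2B were KDELR3 (0.23), RASGRP3 (0.35) and CHN1 (0.38). KDELR3, a receptor that returns proteins to the endoplasmic reticulum, had -0.11 in I79, 0.47 in I10 and 1.27 and 1.14 in the knockdown libraries, where CDKN2B had -0.28, 0.47, 1.17 and 1.26.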

How the data were processed

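The 8 genes, the gene lists and the alternatives were chosen with earlier results of these data known. The WT and HMGB2 KD files hold raw counts, deposited per library and gene symbol. Summary rows as written by htseq-count (16.9% to 18.0% of totals) stayed out of library sizes. Per the labels, STAR 2.6.0c, featureCounts and GRCh37 were used, but the counter and strand setting behind these tables are not given in the sources used here. For each old or young group the authors deposited 1 table of estimated counts and TPM per transcript. The ICM files, as deposited, give estimated counts by region of each gene's transcripts, partly fractional, and their build and aligner are not given in the sources used here.

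Transcript counts were summed per gene through GENCODE v44 lifted to GRCh37, which matched 97.7% of transcript IDs, and rounded. TPM was summed per gene for levels. HMGB2 KD was compared with WT (2 against 2 libraries, no covariate), and old with young in both isolates, with an isolate covariate, by edgeR 4.0.16 (R 4.3.3): quasi-likelihood test, TMM scaling, filterByExpr filter and Benjamini-Hochberg adjustment over all genes. The thresholds are those of the study's methods. SE is the log2 fold change over the square root of F, and 95% intervals of a log2 fold change use the t quantile at the fit's degrees of freedom. Counting intervals are exact Clopper-Pearson 95% intervals on the old table's share of a gene's counts, rescaled by library size. The ICM ratios used a prior count of 2 and genes with 10 reads in 2 columns. CDKN2A transcripts were assigned to p16 or ARF by their annotated first exon. Alternatives used DESeq2 1.42.0, RUVs, other filters and scalings, a replicate block and left-out libraries. The scripts were tested on simulated data. Replicates differed by more than sampling noise (chi-square over its degrees of freedom 2.23 or more in WT, HMGB2 KD and ICM). Named genes were all members, their transcripts with at least 5% of the gene's counts and every CDKN2A transcript with counts, at most 4 called genes per list, direction and comparison with the largest changes, MDM2, SKP2, EZH2, BMI1, MTAP and CDKN2B-AS1 whatever their values, and the 3 nearest genes. Of the listed genes, 1 is not reported here. A file of the authors' own fold changes and p-values was not used.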

Additional observations from a re-analysis of the deposited data

Results flagged for a closer look

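CDKN2A and CDKN2B moved in opposite directions between old and young cells of the 2 isolates, as 19.1% of all genes did. For CDKN2A the log2 change was -0.12 in I79 and 0.95 in I10, a difference of -1.08. For CDKN2B it was -0.28 in I79 and 0.47 in I10, a difference of -0.75. With 1 table per group, these differences were not tested. The counting intervals were -0.46 to 0.21 for CDKN2A and -0.66 to 0.09 for CDKN2B in I79, so a change of 0 lay inside both, and 0.70 to 1.23 and 0.18 to 0.76 in I10.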

How the results depend on the processing

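CDKN2B in the knockdown and CDKN1A and CDKN2C in old cells kept their direction and their call under every alternative tried with a test. Of the 8 genes, the knockdown fit called 1, and 2 with 1 RUVs factor (1121 of all 15338 genes), where CDKN2D was added. The old against young fit called 2, and 4 both without the filter on low counts (4257 of all 29077 genes) and at an adjusted p under 0.05 (3846 of all 15134), where CDKN2D and CDKN3 were added. Of the transcripts of the 8 genes, DESeq2 called 4, and edgeR 0 in a fit that called none of all transcripts and had little power. Of the listed genes, leaving out single libraries gave 2 to 7 calls in the knockdown (6 with all), and old against young gave 31 without the filter and 28 at an adjusted p under 0.05 (18 as reported). ARF shares of summed TPM were 36.97% (I79 young), 13.1% (I79 old) and 19.7% (I10 old). Leaving out single libraries turned signs for CDKN1B (log2 fold changes from -0.20 to 0.092), CDKN2C (-0.22 to 0.17) and CDKN3 (-0.043 to 0.14), and CDKN3 in ICM turned with WT as control (0.047). The cause was not tested.

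Over all genes, the knockdown fit called 797 genes, 312 without HMGB2 KD replicate 2, 548 without WT replicate 1 and 1243 with the replicate block. The replicate block still called 1 of the 8 genes and 8 of the listed genes. Same-numbered WT and HMGB2 KD libraries had deviations that correlated at 0.12 over 2 pairs, and nothing in the labels pairs them. The old against young fit called 1416 genes and 2159 with DESeq2. With 1 residual degree of freedom in old against young, and 61 to 140 counts for CDKN2D and 6 to 137 for the p16 forms, smaller changes of these could not be resolved.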
